A study of Mus musculus with 6 samples.

Results

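The 84 genes described here encode the proteins of the cytosolic ribosome. They were taken from 48709 rows of a count table by gene symbol: every protein-coding gene named Rpl or Rps with its number (and its numbered paralogs), the 3 stalk genes Rplp0, Rplp1 and Rplp2, and Rpsa. Of these, 49 belong to the large subunit, 3 to its stalk and 32 to the small subunit. Pseudogenes and the kinases whose symbols begin with Rps6k were left out. All 84 passed the expression filter of edgeR and were fitted among 20167 tested genes. Each library held RNA of a pool of 13.5 dpc ovaries from CD1 mouse embryos. The 3 control pools came from dams given the ethanol diluent, and the 3 APAP+IBU pools from dams given acetaminophen (APAP, 30 mg/kg per day) together with ibuprofen (IBU, 15 mg/kg per day) by 4 gavages 3 h apart each day, from 10.5 to 13.5 dpc. The drugs reached the embryos through the mother, and gonads of several embryos were combined in each pool, so that a library is a mean over embryos.

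Each ribosome contains one copy of nearly every one of these proteins, bound to ribosomal RNA, and their mRNAs are among the most abundant of a cell. Many of these mRNAs begin with a C followed by a run of pyrimidines, the 5′ terminal oligopyrimidine (TOP) tract, through which the mTOR pathway controls their translation. A few members have duties outside the ribosome: Rpl5 and Rpl11 bind 5S RNA and can hold back Mdm2, the ubiquitin ligase of p53. In the embryonic ovary, Rps29 served the study as a reference gene for RT-qPCR, and a figure legend of the paper names a ribosomal RNA beside it.

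Pyrimidine runs near the start are shown here for 6 members whose values are given further on. The windows hold 30 bases around RefSeq transcription starts (build GRCm38.p6). They run from 10 bases before the start to 20 bases from it on, 5′ to 3′ on the gene's strand, and capitals mark the first run of at least 7 pyrimidines that opens with C. They cover chr4:86857348-86857377 (minus strand) for Rps6, chr17:33955646-33955675 (minus) for Rps18, chr7:141447641-141447670 (plus) for Rplp2, chr2:26910797-26910826 (plus) for Rpl7a, chr3:90213629-90213658 (minus) for Rps27 and chr9:66946076-66946105 (plus) for Rps27l.
Rps6: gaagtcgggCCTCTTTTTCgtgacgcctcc
Rps18: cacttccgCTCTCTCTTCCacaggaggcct
Rplp2: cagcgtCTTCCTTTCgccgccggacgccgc
Rpl7a: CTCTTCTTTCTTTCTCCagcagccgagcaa
Rps27: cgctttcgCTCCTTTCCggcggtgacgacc
Rps27l: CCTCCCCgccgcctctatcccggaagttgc

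In Rps6 the run of 10 pyrimidines began 1 base before the annotated start, and in Rpl7a the run of 17 opened the window. In Rps27l the run of 7 lay wholly before the annotated start, outside the annotated mRNA. Runs anywhere in the window were counted, so a match is not always a tract at the 5′ end of the mRNA. The RefSeq table held 76 starts of 64 members, and 30 of these starts (39.5%) had such a run, against 13.5% of all 32851 starts. The word CCGGAAG, searched on both strands of the 300 bases around each start, was present at 35.5% of the members' starts and at 8.86% of all starts. The Rps27l window printed above holds this word near its 3′ end. The other 20 members, among them Rps29, had no entry. These are matches of letters and say nothing of which protein or pathway used them here.

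The members together took a large share of every library. Counted in the order of the replicate numbers, which is kept throughout, they held 7.14%, 6.20% and 4.01% of all counts in the controls and 3.91%, 4.28% and 5.65% after exposure. Control replicate 3 thus lay with the low APAP+IBU libraries, APAP+IBU replicate 3 lay above it, and the groups overlapped. The mean share was 5.78% ± 1.60 (SD, n = 3) in controls and 4.61% ± 0.919 (SD, n = 3) after exposure, a difference of -1.17 percentage points (exact two-sided permutation test, p = 0.3, where 0.1 is the smallest p that 3 against 3 allows). Library totals ran from 37811968 to 48954631 counts, so counting error is far smaller than this spread. In these bulk samples, fewer cells of a type and less RNA per cell cannot be told apart.

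**Figure D1:**
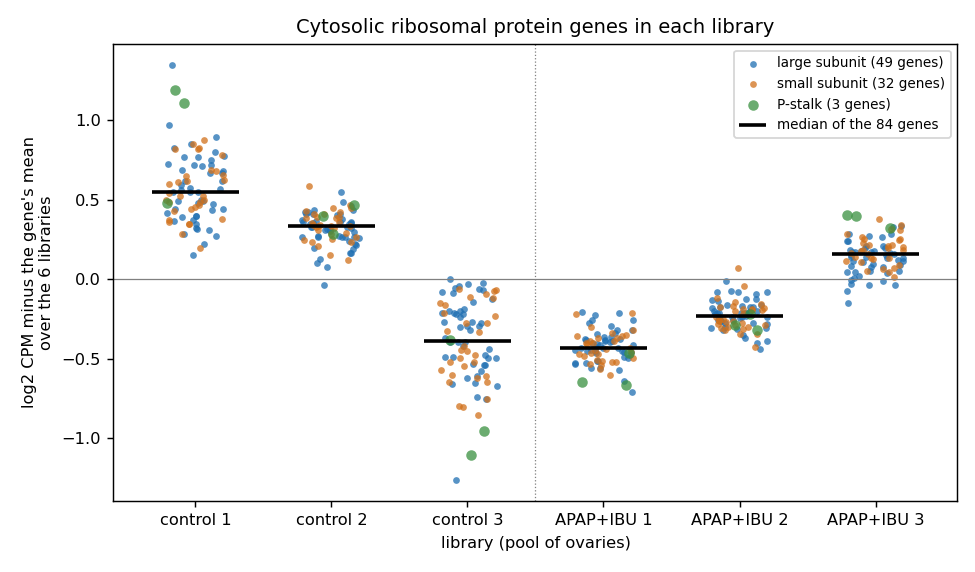
Log2 CPM of each of the 84 genes minus that gene's mean over the 6 libraries (vertical axis), in each library (horizontal axis); points are genes coloured by subunit, and black bars are medians over the genes. The genes move up and down together from library to library, control 3 sits among the low libraries, and the stalk genes Rplp1 and Rplp2 and the large subunit gene Rpl36 lie farthest from the bars in controls 1 and 3.

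Gene by gene, the same order of libraries returned. Levels are CPM, counts scaled to a common library size after TMM normalisation, which assumes that most genes do not change. Control replicate 1 was the highest of the 6 libraries for 78 members and control replicate 2 for the other 6. Control replicate 3 lay below APAP+IBU replicate 3 for 83 members, and below all 3 exposed libraries for 35. The first axis of variation between libraries carried 94.0% of the members' variance in log2 CPM. The median SD of a member over the 3 controls was 0.49 on the log2 scale, against 0.30 over all tested genes, and for 60 of the 84 members this SD was larger than the difference between the group means.

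All 84 members had a negative log2 fold change, from -0.71 to -0.11 with a median of -0.38, while the median of all tested genes was -0.005. None passed an adjusted p of 0.05 in the quasi-likelihood test of edgeR (p-values adjusted after Benjamini and Hochberg), and neither did any in DESeq2. The share of all tested genes called lower at that limit was 0.00%, and the members' adjusted p-values lay between 0.692 and 0.864. At an unadjusted p under 0.05, 5 members (Rpl30, Rpl21, Rps24, Rps27a and Rpl31) were lower and 0 were higher, where 3.21% of all tested genes were lower and 3.00% were higher. DESeq2 without shrinkage put 7 members past that limit on the lower side, as it did 3.12% of the genes it tested. Since the members rise and fall together between libraries, their common sign does not amount to 84 separate observations. The median was -0.38 for the large subunit, -0.36 for the small subunit and -0.53 for the 3 stalk genes, and these differences were not tested.

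**Figure D2:**
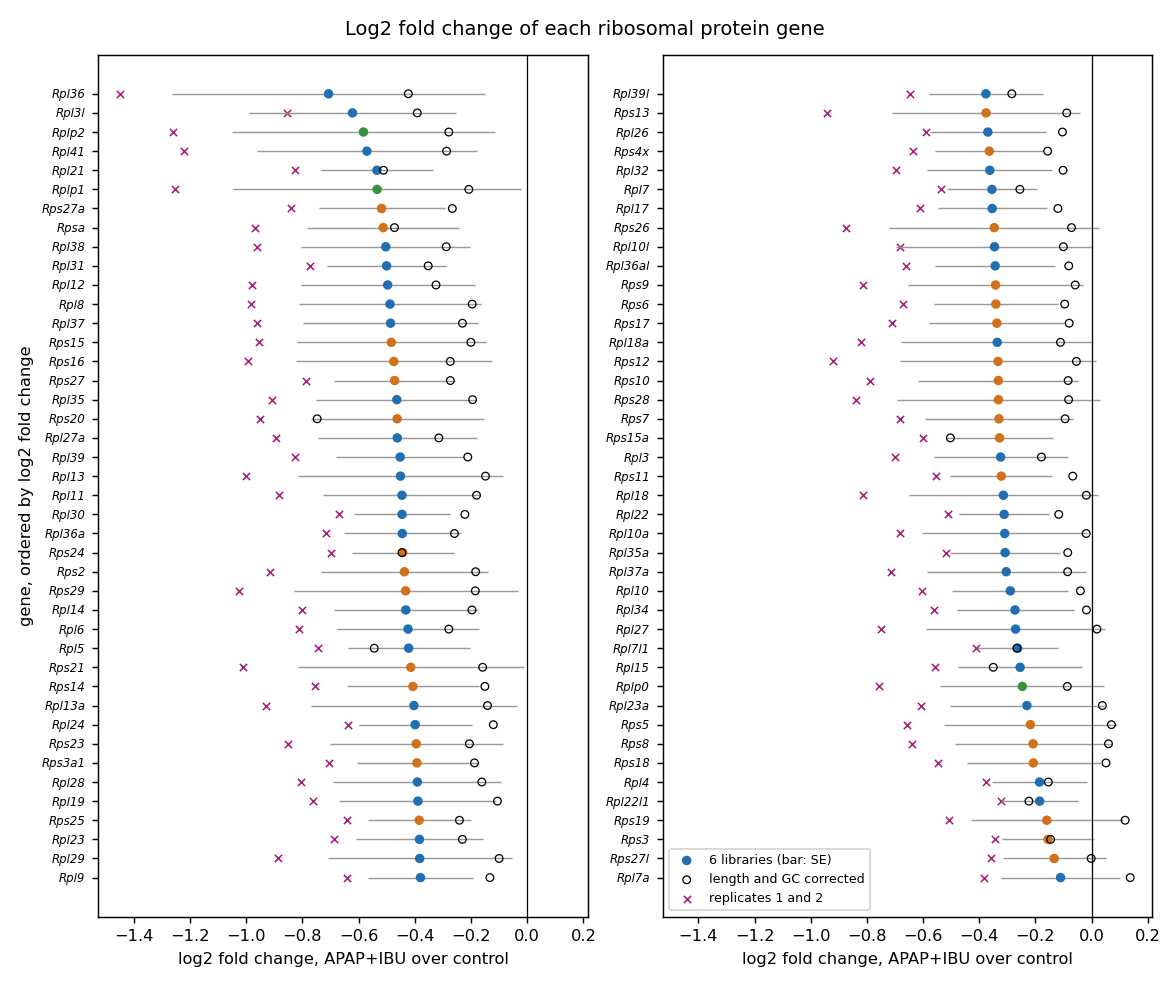
Log2 fold change of APAP+IBU over control ovaries (horizontal axis) for each gene (vertical axis, ordered by value); filled points are the fit to 6 libraries with its standard error (blue large subunit, orange small subunit, green stalk), open circles the same fit corrected for transcript length and GC content, and crosses the fit to replicates 1 and 2 of each group. Filled points lie between -0.71 and -0.11, open circles move towards 0 for most genes, and crosses lie farther to the left, down to -1.45.

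The member with the smallest p was Rpl21, a protein of the large subunit. Its level was 581, 556 and 395 CPM in the controls and 293, 340 and 425 CPM in the exposed libraries. Control replicate 3 fell below APAP+IBU replicate 3, and its log2 fold change was -0.53 (SE 0.20, adjusted p = 0.692). Rpl30, also of the large subunit, had 605, 648 and 474 CPM in the controls and 374, 402 and 493 CPM after exposure. The overlap again came from the third replicates alone, with a log2 fold change of -0.45 (SE 0.17, adjusted p = 0.692). Rps27a, which is made as a fusion with ubiquitin, had 947, 901 and 563 CPM in controls and 485, 532 and 666 CPM after exposure, a log2 fold change of -0.52 (SE 0.22, adjusted p = 0.692). Rps24 and Rpl31, with log2 fold changes of -0.44 and -0.50, had the same arrangement of libraries. Rpl7, Rps27 and Rpl36a followed in the order of p, with log2 fold changes from -0.47 to -0.36 and the same adjusted p of 0.692.

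Only Rpl3l, a paralog of Rpl3 that is known from striated muscle, had groups that did not overlap, as did 5.92% of all tested genes in this direction. Rpl3l was scarce, with 2.26, 1.12 and 1.06 CPM in controls and 0.966, 0.873 and 1.04 CPM after exposure, and the nearest libraries of the groups were almost equal. Its log2 fold change was -0.62 (SE 0.37, adjusted p = 0.692). The lowest log2 fold change was that of Rpl36, at 494, 284 and 81.0 CPM in controls and 119, 162 and 245 CPM after exposure. Here the control libraries alone spanned 6.10-fold, and the log2 fold change of -0.71 had an SE of 0.56 (adjusted p = 0.710). Rplp2, one of the acidic proteins of the stalk that recruits elongation factors, had 619, 399 and 149 CPM in controls and 184, 236 and 359 CPM after exposure, a log2 fold change of -0.58 (SE 0.47, adjusted p = 0.713). Control replicate 3 was the lowest of the 6 libraries for both genes. At the other end, Rpl7a had 983, 801 and 579 CPM in controls and 639, 710 and 841 CPM after exposure, with a log2 fold change of -0.11 (SE 0.21, adjusted p = 0.864). Rps27l and Rps3, a small subunit protein that also acts in DNA repair, came next with -0.13 and -0.16.

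Reference genes carried the same spread. Rps29 (ENSMUSG00000034892, GRCm38 chr12:69157722-69159186, minus strand) is a small zinc-binding protein of the small subunit. Its level was 553, 401 and 173 CPM in controls and 199, 264 and 373 CPM in exposed ovaries. The control libraries differed by up to 3.19-fold, and the exposed libraries all fell between the lowest and the second control. The group means were 376 ± 191 CPM (SD, n = 3) and 279 ± 87.9 CPM (SD, n = 3), with a log2 fold change of -0.43 (SE 0.40, adjusted p = 0.739), and the exact two-sided permutation test on log2 CPM gave p = 0.7. With replicates 1 and 2 alone the log2 fold change of Rps29 was -1.03 (SE 0.18, adjusted p = 0.00957 in edgeR's test). That fit leaves out the lowest control and the highest exposed library of Rps29.

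Rps18, another small subunit protein often used for normalisation, had 737, 632 and 401 CPM in controls and 437, 486 and 610 CPM after exposure, a log2 fold change of -0.21 (SE 0.24, adjusted p = 0.775). Rpl13a had 961, 734 and 329 CPM in controls and 394, 482 and 653 CPM after exposure (log2 fold change -0.40, SE 0.37, adjusted p = 0.736). Both groups overlapped in each case. Rplp0, the core of the stalk, had 1705, 1488 and 937 CPM in controls and 886, 979 and 1616 CPM after exposure, a log2 fold change of -0.25 (SE 0.29, adjusted p = 0.781). For Rplp0 the third exposed library lay between the first and the second control. Between the first and the third control, these reference genes differed by 1.84-fold for Rps18, 1.82-fold for Rplp0, 2.93-fold for Rpl13a and 3.19-fold for Rps29.

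**Figure D3:**
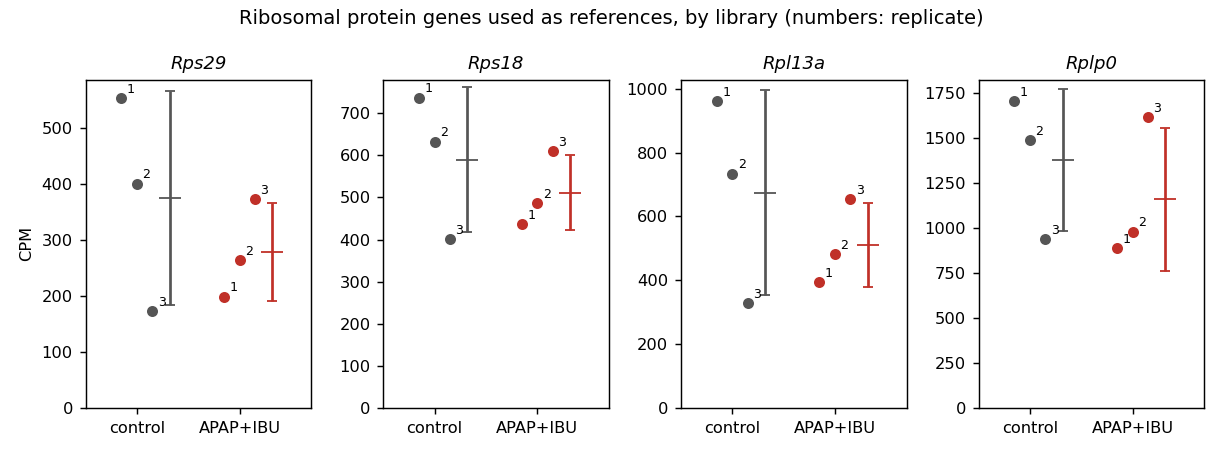
CPM of 4 ribosomal protein genes that serve as reference genes (vertical axes, from 0) in each library of the control (grey) and APAP+IBU (red) groups; numbers give the replicate, and horizontal marks with bars the mean and SD of 3 libraries. Control replicate 3 is the lowest control for each gene, at 173 CPM for Rps29, and the groups overlap in all 4 panels.

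The other members chosen for their roles behaved alike. Rpl5 was at 860, 765 and 525 CPM in controls and 464, 492 and 648 CPM after exposure (log2 fold change -0.42, SE 0.22, adjusted p = 0.692). Rpl11, its partner in the 5S particle, was at 776, 671 and 378 CPM in controls and 369, 405 and 567 CPM after exposure (log2 fold change -0.45, SE 0.28, adjusted p = 0.698). For both, the overlap came from control replicate 3, which lay among the exposed libraries. Rps6, whose protein is phosphorylated by the S6 kinases downstream of mTOR, was at 939, 884 and 577 CPM in controls and 541, 588 and 766 CPM after exposure (log2 fold change -0.34, SE 0.22, adjusted p = 0.698). Rps19, the gene most often mutated in Diamond-Blackfan anaemia, was at 760, 684 and 384 CPM in controls and 415, 589 and 633 CPM after exposure (log2 fold change -0.16, SE 0.27, adjusted p = 0.845). Rpl41, which encodes the shortest ribosomal protein, was at 1814, 1372 and 636 CPM in controls and 627, 722 and 1225 CPM after exposure (log2 fold change -0.57, SE 0.39, adjusted p = 0.699). Rpl41 spanned a wider range between controls than Rps6 or Rps19. Per kilobase of the principal transcript, Rpl32, Rps14 and Rps27 had the highest mean levels over the 6 libraries, at 1910, 1890 and 1844 CPM per kilobase, and Rpl3l the lowest at 0.887.

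Members differed in how far they moved between control libraries, and these differences varied with sequence composition. Control replicate 1 lay above control replicate 3 for every member, by 0.17 on the log2 scale for Rpl22l1, 0.27 for Rpl7, 0.27 for Rps3 and 0.28 for Rpl4, and by 2.61 for Rpl36, 2.29 for Rplp1 and 2.06 for Rplp2. Principal transcripts of the members had a median length of 789.5 bases and a median GC content of 50.7%, against 2531 bases and 49.97% over all tested genes. Across the 84 members, which share the same 2 libraries, this difference had a Pearson r of 0.59 (Spearman's rho 0.61) with GC content and -0.29 (rho -0.19) with log2 length. Over 20103 tested genes the same correlations were 0.44 and -0.23, so that the relation was not one of the ribosomal protein genes only.

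**Figure D4:**
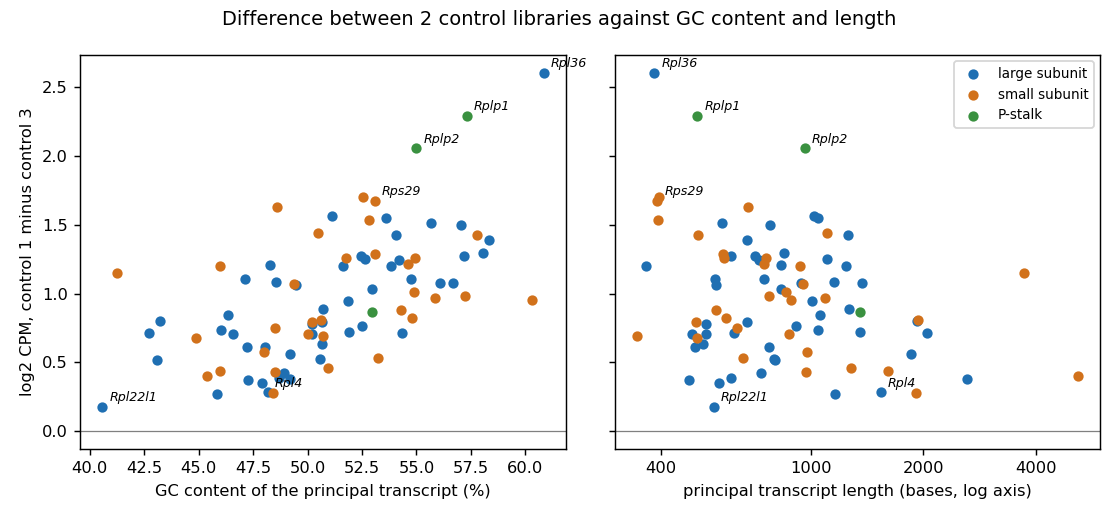
Difference in log2 CPM between control replicate 1 and control replicate 3 (vertical axis) against GC content (left) and length on a log axis (right) of the principal transcript; points are the 84 genes, coloured by subunit. All points lie above 0, GC-rich genes lie higher, and Rpl36, with 60.8% GC, is at 2.61.

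Other short genes also differed in share between libraries, in an order close to that of the members but not the same. Protein-coding genes outside the family with a principal transcript under 800 bases held 3.40%, 4.17% and 2.83% of the non-member counts in the controls and 2.08%, 2.36% and 3.14% after exposure. Control replicate 2 held the highest of these shares, while control replicate 1 was the highest for the members. How far the erythroid genes, whose sums are given below, enter these shares was not tested. For the non-member counts the mean GC content was 50.4%, 50.1% and 49.1% in controls and 49.2%, 49.4% and 49.8% after exposure. A correction of each library for length and GC content by a loess curve moved the members' median log2 fold change from -0.38 to -0.16. After it, 77 members had negative and 7 positive log2 fold changes, and only Rpl21 and Rps24, 2 of the 84, passed an unadjusted p of 0.05 on the lower side, as did 5.11% of all tested genes. For Rps29 the corrected log2 fold change was -0.18. Across the 84 members, the log2 fold change before the correction had a Pearson r of -0.21 with GC content and 0.034 with log2 length. Afterwards these were 0.38 and -0.53, so the corrected values varied with both within the family. The annotated principal transcript was longer than 1600 bases for 9 members, among them Rps15a (5179 bases) and Rps20 (3706 bases), whose corrected values became more negative, from -0.33 to -0.50 and from -0.46 to -0.75.

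The comparison of the groups depended on the third replicates. Control replicate 3 had the lowest share of counts on the members among the controls (4.01%). APAP+IBU replicate 3 had the highest among the exposed libraries (5.65%). Leaving both out therefore sets the remaining libraries farther apart, and since the members move together, the calls below are not separate observations. With replicates 1 and 2 of each group alone, the members' median log2 fold change was -0.75. At an adjusted p under 0.05 in edgeR's test, 80 members were lower, where 12.9% of all tested genes were lower and 14.2% higher. The unadjusted limit was passed on the lower side by 83 members and 20.0% of all tested genes. The members not called at the adjusted limit were Rpl3l, Rpl10l, Rpl7a and Rps19. With the length and GC correction, 38 members were lower at the adjusted limit, with a background of 6.07%, and 64 at the unadjusted limit, with a background of 15.3%, and the median was -0.43. DESeq2 with its beta prior on these 4 libraries put 83 members past the adjusted limit (14.1% of its genes with an adjusted p) and 83 past the unadjusted one (12.1%). Leaving out control replicate 3 alone gave 76 members lower at an unadjusted p under 0.05 (15.4% of all tested genes) and 3 lower at an adjusted p under 0.05 (2.26% of all), namely Rpl24, Rpl31 and Rps27a, with a median of -0.60. With the correction as well, 25 members and 11.4% of all tested genes were past the unadjusted limit. Without APAP+IBU replicate 3 alone, 23 members and 6.22% of all tested genes passed the unadjusted limit on the lower side, and the median was -0.57. Leaving out any other single library left 0 members past that limit, with medians of -0.18 without control replicate 1, -0.32 without control replicate 2, -0.26 without APAP+IBU replicate 1 and -0.35 without APAP+IBU replicate 2.

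Marker genes of other cell types differed between the libraries too. Of 20 liver genes, none was at 0 throughout, and their summed level ran from 283 to 2163 CPM in controls and from 212 to 3516 CPM after exposure, with both maxima in the third replicates. Alb, the albumin gene, was at 23.7, 49.4 and 691 CPM in controls and 19.5, 105 and 1265 CPM after exposure. Summed levels of 11 erythroid genes ran from 7061 to 17246 CPM in controls and from 3192 to 10227 CPM after exposure. The 18 genes of spermatids, a cell type that a fetal ovary lacks, summed to 185, 60.5 and 58.8 CPM in controls and to 10.6, 4.69 and 6.56 CPM after exposure, and all 18 had negative log2 fold changes. The liver sums thus set the third replicates apart and the spermatid sums the groups. With the mean level of the liver list as a covariate, the members' median log2 fold change was -0.37, and 2 members were lower at an unadjusted p under 0.05 (2.88% of all tested genes). The part of the erythroid and spermatid lists in the members' values was not tested. The ovary's own markers were present in every library: 12 germ cell genes summed to between 1333 and 1548 CPM and 12 somatic genes to between 1361 and 1793 CPM. Of the germ cell genes, 10 had negative log2 fold changes, 1 at an unadjusted p under 0.05 (3.21% of all tested genes), with a median of -0.31. With replicates 1 and 2 alone, 6 of the 12 were lower and 2 higher at an adjusted p under 0.05, with a median of -0.53. Of all tested genes, 12.9% were lower and 14.2% higher there. With the length and GC correction as well, 2 of the 12 were lower (6.07% of all tested genes) and 0 higher, with a median of -0.30. Of the somatic genes, 6 had negative and 6 positive values, with a median of 0.01.

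The balance between the subunits was steadier than the level of either. Summed counts of small subunit genes were 0.729, 0.753 and 0.749 times those of large subunit and stalk genes in the controls, and 0.753, 0.738 and 0.754 times in the exposed libraries. On the log2 scale the ratio was -0.43 ± 0.026 (SD, n = 3) in controls and -0.42 ± 0.018 (SD, n = 3) after exposure, and the difference of 0.0088 was below the spread (exact two-sided permutation test, p = 0.6).

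Paralogs of 8 core members were set against their partners within each library. In this ratio a rise or fall of equal size in both genes cancels, but moves of unequal size remain. For Rpl10l over Rpl10 the log2 ratios in the controls were -5.70, -6.28 and -6.74. Rps27l, a close relative of Rps27 that p53 is known to induce, held 14.3%, 14.2% and 14.4% of the summed Rps27 and Rps27l counts in controls and 18.4%, 18.2% and 16.1% after exposure. All exposed libraries lay above all controls. The log2 ratio was -2.58 ± 0.010 (SD, n = 3) in controls and -2.23 ± 0.13 (SD, n = 3) after exposure, a difference of 0.35. In the exact two-sided permutation test this gave p = 0.1, the smallest that 3 against 3 allows, and p = 0.4 after Benjamini-Hochberg adjustment over 8 pairs, so it did not pass. The difference was 0.29 with the length and GC correction and between 0.31 and 0.42 without each library in turn.

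Rpl36al, which lies on chromosome 12, held 16.7%, 16.8% and 16.7% of the counts of its pair with the X-linked Rpl36a in controls and 17.3%, 17.2% and 18.5% after exposure. The groups did not overlap here either, and the difference of the log2 ratio was 0.095 (exact two-sided permutation test, p = 0.1, adjusted p = 0.4). It was 0.17 with the length and GC correction and 0.056 without APAP+IBU replicate 3. Rpl22l1, the paralog of Rpl22, held 21.2%, 21.6% and 23.5% in controls and 23.0%, 24.2% and 23.3% after exposure (difference of the log2 ratio 0.12, exact permutation p = 0.3), and the difference turned to -0.12 with the correction. The pairs with Rpl3l, Rpl7l1, Rpl10l, Rpl39l and Rps4l had differences between -0.22 and 0.18 with overlapping groups and exact permutation p-values from 0.4 to 1. Rps4l carries a pseudogene entry in the annotation used. Paralogs share stretches of sequence, so reads may have been split between the genes of a pair.

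**Figure D5:**
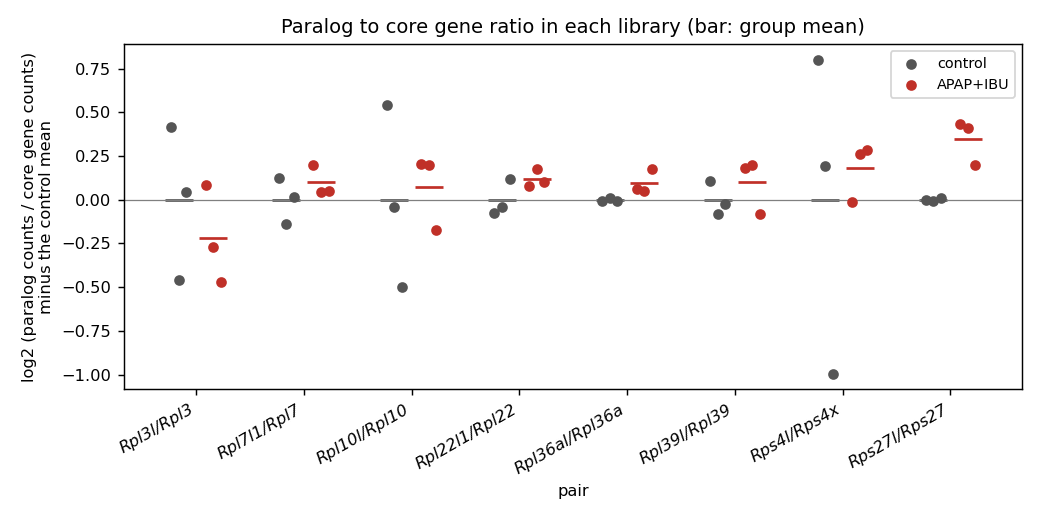
Log2 ratio of paralog to core gene counts minus the control mean of the pair (vertical axis) for 8 pairs (horizontal axis), with 1 point for each control (grey) and APAP+IBU (red) library and a bar at each group mean. The 3 controls of Rps27l/Rps27 nearly coincide, and the exposed libraries lie higher by 0.35 on average.

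Fau and Rack1, ribosomal protein genes whose symbols fall outside the naming rule, had negative values as well and did not pass the test. Fau, which encodes the small subunit protein eS30 fused to a ubiquitin-like protein, was at 516, 350 and 127 CPM in controls and 160, 197 and 308 CPM after exposure (log2 fold change -0.58, SE 0.46, adjusted p = 0.713). Rack1, a scaffold protein of the small subunit, had a log2 fold change of -0.21, and both genes overlapped between groups. Of 16 translation factors and other genes with TOP mRNAs, 15 had negative log2 fold changes, with a median of -0.24. Among them 1 (Eif3f, a subunit of initiation factor 3) was at an unadjusted p under 0.05. That limit was passed on the lower side by 3.21% of all tested genes. Eif3f was at 353, 344 and 239 CPM in controls and 195, 220 and 252 CPM after exposure (log2 fold change -0.49, SE 0.18, adjusted p = 0.692).

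Of the 78 mitochondrial ribosomal protein genes, which serve a separate ribosome, 77 were tested. Negative values were found for 75, 2 at an unadjusted p under 0.05, and the median was -0.25. In the same fit, 3.21% of all tested genes were lower and 3.00% higher at that limit. Of 30 genes of ribosome assembly, 26 had negative values and 1 (Ncl, nucleolin) passed the unadjusted limit, with a median of -0.15. None of the 19 RNA polymerase I genes passed it, with a median of -0.20. Among 16 regulators of TOP mRNAs and of ribosomal protein transcription, 8 had negative and 8 positive values. Rps6kb1, the S6 kinase gene, was at 47.6, 54.5 and 76.4 CPM in controls and 89.6, 86.3 and 70.1 CPM after exposure. Its libraries ran in nearly the opposite order to the members, with a log2 fold change of 0.46 (SE 0.19, adjusted p = 0.692), and it was the 1 regulator past the unadjusted limit. With the length and GC correction the log2 fold change of Rps6kb1 was 0.13, and no regulator passed. Of 10 genes of the nucleolar stress response, none passed in either direction in the fit to 6 libraries, and the median was -0.06. With the length and GC correction 1 was higher past the unadjusted limit, as were 939 of 20103 tested genes. With replicates 1 and 2 alone, 3 were lower and 1 higher at an adjusted p under 0.05, against 12.9% and 14.2% of all tested genes.

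Named pseudogenes of the members, 276 rows in all, held between 0.174% and 0.301% of the counts, or between 3.85% and 4.73% of what the members held. Of the 93 tested, 87 had negative values, 13 at an unadjusted p under 0.05 (3.21% of all tested genes), with a median of -0.41. With the length and GC correction 75 had negative and 18 positive values, with a median of -0.20. Then 6 were lower past the unadjusted limit (5.11% of all tested genes) and 1 was higher. Pseudogenes are near copies of their parent mRNAs, and reads of one may have been counted on the other. With their counts added to the members, the median log2 fold change of the members was again -0.38.

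The sequence features printed first did not divide the members by their values. The 30 members with a pyrimidine run had a median log2 fold change of -0.34 and the 34 without one -0.38. For the word CCGGAAG, the 26 members with it had a median of -0.40 and the 38 without it -0.34. With replicates 1 and 2 alone these medians were -0.78 and -0.73 for the run, and -0.80 and -0.71 for the word.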

How the data were processed

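RNA of 13.5 dpc ovaries was sequenced in 3 control and 3 APAP+IBU pools with a stranded polyadenylated library kit. The authors mapped reads to mm10 with TopHat2 2.0.14 and Bowtie2 2.1.0, counted them per Ensembl gene with HTSeq 0.6.1 and deposited raw counts. The strand setting of the counting is not given in the sources used here. The exposed samples carry IBU only in their titles, but both drugs in the exposure label and in the methods. The paper describes independent experiments, each with dams of both groups, and pools of embryonic gonads from a pair of dams per experiment and group. The sources used here do not state which control and exposed pools came from the same experiment, or whether same-numbered pools were paired.

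From the deposited counts, edgeR 4.0.16 (R 4.3.3) was run on all 20167 genes passing its filter, with TMM normalisation, the quasi-likelihood test and Benjamini-Hochberg adjustment. Log2 CPM used a prior count of 1. The smallest exact permutation p of 3 against 3 libraries is 0.1. GENCODE M21 (GRCm38, the assembly of mm10) gave symbols for 48349 rows, with gene positions, transcript lengths and GC content. The symbol pattern also matched the kinase Rps6kl1, which was left out. Length and GC correction used a loess span of 0.3 on 20103 genes. DESeq2 1.42.0, other normalisations and filters, a replicate block, a liver covariate, added pseudogene counts and left-out libraries were alternatives. The fits were tested on simulated counts with known changes, larger than those of the members, and with a length bias. The simulation held no GC bias and no movement of genes together beyond that of length. It drew every gene with the same assumed spread between libraries, not with the spread between these pools. It therefore does not show how the fits behave under any of these. Libraries of one group differed beyond sampling noise (between 19.2 and 168 for chi-square divided by its degrees of freedom), and none was taken for a duplicate. Replicates are pools, and p-values measure the spread between pools.

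The members and lists were chosen with earlier results of these data known. Members were named for a role (Rps29, Rplp0, Rpl13a, Rps18, Rpl5, Rpl11, Rps6, Rps27a, Rps19, Rpl41), as a paralog pair, or for the 8 smallest p-values, the 3 lowest and 3 highest log2 fold changes and the 3 highest levels per kilobase, and up to 3 other genes for the smallest p in each list. Alb, Rplp1, Rpl4, Rpl24, Rps15a and Rps20 were named after their values were seen.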

Additional observations from a re-analysis of the deposited data

How the results depend on the processing

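No member had a positive log2 fold change past a limit in any alternative, and no alternative with all 6 libraries called a member at an adjusted p under 0.05. The median log2 fold change stayed negative throughout, and the length and GC correction brought it from -0.38 to -0.16 (-0.15 with the replicate block). The number of members past an unadjusted p under 0.05 moved from 5 to 9 with upper quartile scaling, 2 with the correction, 2 with the liver list as covariate and 0 with the replicate block (1 with the block and the correction). It moved to 3, 1 and 2 with exon-union lengths, the shortest principal transcripts and a loess span of 0.1, and to 25 (11.4% of all tested genes) without control replicate 3 and with the correction. These last 4 were chosen after seeing the data. Of all tested genes, 1.89% to 5.12% passed this limit on the lower side in the alternatives that kept all 6 libraries. Leaving out single libraries gave 0 to 76 at this limit and 0 to 3 at the adjusted limit. The fits to replicates 1 and 2 leave out the lowest control and the highest exposed library by the members' share of counts. With replicates 1 and 2 the counts were 83 (80 adjusted), with the correction 64 (38) and with DESeq2 and its beta prior 83 (83), where 20.0% (12.9%), 15.3% (6.07%) and 12.1% (14.1%) of all tested genes were lower. The log2 fold change of Rps29 was then -1.03, -0.66 and -0.97 (adjusted p = 0.00957, 0.0335 and 3.6e-08).

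Small values changed sign. With the correction, Rps18 was at 0.051, Rps19 at 0.12 and Rpl7a at 0.14, with the block added at 0.054, 0.11 and 0.14 (Rps27l at 0.011), with replicates 1 and 2 Rps19 at 0.029 and Rpl7a at 0.016, and without control replicate 3 these 2 at 0.040 and 0.057. Exon-union lengths gave 0.032 for Rps27l and 0.067 for Rpl7a, shortest transcripts 0.031 for Rps18, 0.11 for Rps19 and 0.13 for Rpl7a, and the span of 0.1 gave 0.0084, 0.12 and 0.13 (Rps27l 0.064). Without single libraries, Rps19 ran from -0.40 to 0.030, Rpl10l from -0.66 to 0.065, Rps27l from -0.30 to 0.019 and Rpl7a from -0.29 to 0.079, each highest without control replicate 1. The difference in the small to large subunit ratio, 0.0088, ran from -0.0059 to 0.019 without single libraries and was -0.0061 with the correction. The ratio differences ran from -0.17 to 0.35 for Rpl10l and from -0.32 to 0.58 for Rps4l, lowest without control replicate 3, and those of Rpl22l1 and Rpl39l were -0.12 and -0.051 with the correction. The cause of these changes was not tested.

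Deviations from the group means correlated at -0.069, -0.015 and -0.044 between libraries of the same number. These correlations cannot settle whether same-numbered pools shared an experiment, and the liver sums were highest in the third replicate of both groups. The replicate block pairs pools by number. With the block the members' median log2 fold change was -0.34, and that of Rps29 was -0.34. The paired sign-flip test of the share of counts gave an exact p of 0.5 for the same -1.17 points and of 0.75 for the subunit ratio. With 3 pairs the smallest p of this test is larger than the 0.1 of the unpaired test. With 3 pools per group, differences smaller than the spread between control pools could not be resolved, whatever the depth. The correction rests on annotated lengths, and which transcripts were sequenced was not measured.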
